A study of Mus musculus with 2 samples.

Results

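The lineage transcription factors of TCRαβ+ CD8αα+ intraepithelial lymphocytes (IELs) were read here as 10 genes, namely Tbx21, Eomes, Runx3, Runx1, Zbtb7b, Id2, Id3, Gata3, Bcl11b and Tox. They were found among 20887 named genes through the transcript accession that each probe carries, and 16 probes matched them. IELs of this kind were sorted from the small intestine of C57BL/6 mice, males and females together, aged 8 to 12 weeks, as cells that stained for TCRβ and CD8α but not for TCRγδ, CD4 or CD8β. The group labelled Control had the genotype Rbpjf/f, and the group labelled RFF4 had the genotype CD4-Cre Rbpjf/f. The Rbpjf/f allele is therefore shared by both labels, and the study describes its controls as animals with intact Rbpj that carry the CD4-Cre transgene. The CD4 promoter switches Cre on in developing thymocytes, so all T cells that pass through the CD4-expressing stage are open to deletion. RNA of several isolations was pooled within each group, and each group was measured on 1 one-colour microarray. With 1 array per group there was no replicate, so no p-value is given and every difference below is between these 2 pools of RNA. A pool with fewer cells of a type and a pool with less RNA per cell cannot be told apart.

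CD8αα IELs are T cells of the gut lining that leave the thymus as CD4- CD8- precursors and acquire CD8αα and a cytotoxic programme afterwards. The T-box factors T-bet (Tbx21) and Eomes drive that programme, Runx3 and ThPOK (Zbtb7b) oppose each other in the choice between the CD8 and CD4 lineages, and the Id proteins hold E proteins away from DNA. Gata3, Bcl11b and Tox act earlier and more broadly in the making and identity of T cells. RBPJ is the DNA-binding partner of cleaved Notch receptors, and the comparison addresses what its loss in T cells does to gene expression in these IELs.

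Of the spots that carry gene probes, 57.2% were well above background on the array labelled Control and 49.7% on the array labelled RFF4, and no spot was saturated. Each array's log2 signals were set relative to its own 75th percentile, and that relative value is called the level below. Repeated spots gave a technical SD of 0.158 for a log2 difference between 2 single spots, and the scanner's own error model gave about 0.20, and neither covers the spread between animals. Rbpj was not lower on the array labelled RFF4: its brighter probe had a level of 1.96 on Control and 2.28 on RFF4 (a difference of 0.32), and its other probe differed by 0.82. The files do not say whether these probes lie in the floxed exons, so these probes do not check the genotype, and each direction below is between the arrays as labelled. The T cell identity was visible on both arrays, where all 10 T cell markers stood well above background, with Cd3e, the signalling chain of the T cell receptor complex, at 8.10 and 8.44. Markers of other cells were higher on the array labelled RFF4. The summed linear level of 15 epithelial markers was 230 on Control and 698 on RFF4, that of 12 macrophage and dendritic markers 76.3 and 170, and that of 7 B and plasma cell markers 26.0 and 58.2, with Cd79a and Pax5 well above background on neither array. Most of the macrophage and dendritic sum on Control came from Itgax (levels of 5.52 and 5.73) and Itgam (4.32 and 5.24), and the median difference of that list was 2.33. The same sum over the 10 lineage factors was 130 and 133, and the part of other cells in any value below was not tested.

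None of the 10 lineage factors differed by more than 2-fold in either direction, where 12.3% of the 13513 genes with a difference were higher by more than 2-fold on the array labelled RFF4 and 5.05% were lower. Past 4-fold 1.85% of all genes were higher and 0.585% lower. Together 17.4% of all genes passed 2-fold, and the 0 of 10 is given as a description of these arrays. Id3, Zbtb7b, Eomes, Bcl11b, Tbx21 and Gata3 were higher on RFF4 and Runx1, Tox, Id2 and Runx3 were lower. As log2 values the differences ran from -0.53 for Runx1 to 0.77 for Id3 around a median of 0.14, beside a median of -0.01 and quartiles of -0.37 and 0.44 over all genes. Of the 10 factors, 5 differed by more than 2 technical SDs (58.9% of all genes did), and 3 of them, Id3, Runx1 and Zbtb7b, also by more than 2 scanner errors. The factors with several probes did not always give 1 direction, as described for Zbtb7b and Bcl11b below.

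**Figure D1:**
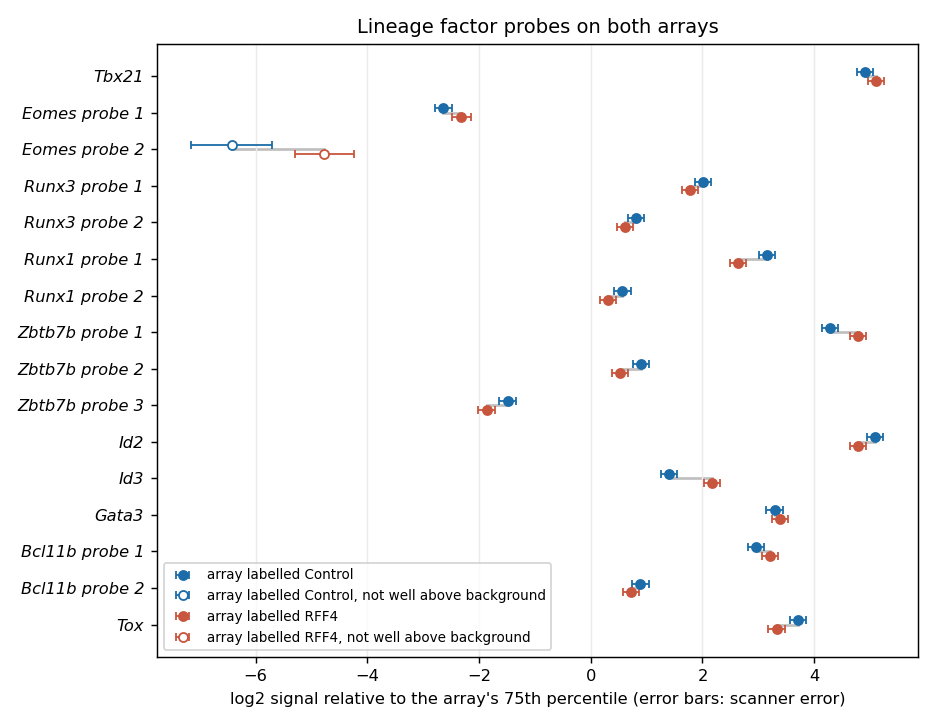
Level of every lineage factor probe on both arrays, as log2 signal relative to the 75th percentile of that array (x axis), with 1 row per probe and the brightest probe of a gene first. Points are single spots on the array labelled Control (blue) or RFF4 (red), bars are the scanner's error, and open points are not well above background. For 15 of the 16 probes both points are filled and lie within 1 log2 unit of each other, and only the second Eomes probe is open on both arrays.

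The T-box factors were slightly higher on the array labelled RFF4, under every scaling except that on spike-in controls. Tbx21, which encodes T-bet, had a processed signal of 15272 ± 1527 (scanner error) on Control and 7791 ± 779 on RFF4. Relative to the 75th percentile, which was itself lower on RFF4 (a log2 signal of 7.82, against 8.99 on Control), these were levels of 4.91 and 5.10, a difference of 0.20 ± 0.20 (scanner error). The unscaled signal was thus higher on Control and the scaled level higher on RFF4 by no more than the error. Eomes, the second T-box factor of cytotoxic lymphocytes, had signals of 81.8 ± 8.6 and 45.5 ± 5.2, and levels of -2.64 and -2.32. Its difference of 0.32 ± 0.22 rested on a dim probe whose raw signal was 3.84 times the background on Control and 1.96 times on RFF4. The second Eomes probe was well above background on neither array. The gap between the differences of these genes, Tbx21 minus Eomes, was -0.13, smaller than the technical SD of 0.223 for such a gap.

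Genes that T-box factors are known to act on passed 2-fold at about the share of all genes. Of 9 such genes 1 was higher past 2-fold, where 12.3% of all genes were, namely Cxcr3, the chemokine receptor of type 1 lymphocytes, at levels of 3.55 on Control and 4.59 on RFF4, a difference of 1.04. The list's median difference was 0.20, with 5 genes higher and 4 lower, and its range was -0.59 for Klrd1 to 1.04, with the chemokine Ccl5 just inside 2-fold at levels of 9.38 and 10.4. Il2rb, the IL-2 and IL-15 receptor chain that T-bet sustains in these cells, was named after its value was seen, and had levels of 6.94 and 7.14. The Cxcr3 call was lost under 4 of the other ways of processing the arrays.

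Both Runx genes were lower on the array labelled RFF4 at every probe. Runx3, which silences Cd4 and favours CD8 in cytotoxic T cells, had signals of 2054 ± 205 on Control and 780 ± 78.1 on RFF4 at its brighter probe, or levels of 2.01 and 1.78. That probe differed by -0.23 ± 0.20 and the other by -0.20 ± 0.20, each close to its own error. Runx1, needed at several steps of thymocyte development, had signals of 4548 ± 455 and 1401 ± 140, or levels of 3.16 and 2.63. The difference of -0.53 ± 0.20 at this probe was the lowest of the 10 factors, although 17.4% of all genes lay lower still. The second Runx1 probe had levels of 0.57 and 0.31 and a difference of -0.25 ± 0.20, so the direction was shared and the size was not. Between the genes, the gap Runx1 minus Runx3 was -0.30, and it ran from -0.37 to -0.18 over all ways of processing and from -0.33 to -0.03 over the 4 pairs of probes.

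Zbtb7b, which encodes ThPOK, the factor that commits cells to the CD4 lineage, gave opposite directions at its 3 probes. At the brightest probe the signals were 9897 ± 990 on Control and 6240 ± 624 on RFF4, or levels of 4.28 and 4.78, a difference of 0.50 ± 0.20. The second probe had levels of 0.90 and 0.52 and differed by -0.39 ± 0.20, and the third had levels of -1.49 and -1.86 and differed by -0.37 ± 0.21. The first probe was thus higher on RFF4 by more than 2 scanner errors, while the others were lower by less than that. Their mean difference was -0.09, so no direction can be given for Zbtb7b from these probes. The same holds for the gap Zbtb7b minus Runx3, which was 0.73 at the brightest probes and ran from -0.19 to 0.73 over the 6 pairs of probes.

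Of the genes by which Runx3 and ThPOK are usually read, those measured on both arrays did not pass 2-fold. Cd8a, the chain that forms CD8αα, had levels of 6.24 on Control and 6.18 on RFF4, a difference of -0.07. Cd4 had levels of 1.67 and 1.80, a difference of 0.13, in cells sorted as CD4-. Cd8b1, the chain absent from CD8αα cells, was dim on Control at -3.52 and not well above background on RFF4, so its difference is a bound of at least 1.65-fold lower. A bound sets the measured array against the higher of the dim probe's own signal and the lowest signal that the other array still measured well. The lowest such level was more than 2-fold higher on RFF4 than on Control. A gene that lay below the Control one and was measured on RFF4 is therefore past 2-fold higher by construction. Over the 6 matched genes of this list 3 were higher and 3 lower, with a median difference of 0.03. Cbfb, the subunit that Runx proteins need to bind DNA, had levels of 5.08 and 5.18, a difference of 0.10.

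Short promoter stretches are shown for Tbx21, Zbtb7b, Runx3 and Runx1, since these carry the binding letters of RBPJ or of Runx proteins next to a start site. RefSeq windows from 250 bases before to 50 bases after a start were at hand for 9 of the 10 factors (12 windows, build GRCm38.p6, not the mm9 build of the array design), and for Tox none was used. The stretches are written 5′ to 3′ along the gene, with the RBPJ core TGGGAA and the Runx core TGTGGT, or their reverse complements, in capitals.
Tbx21, chr11:97115477-97115536, minus strand: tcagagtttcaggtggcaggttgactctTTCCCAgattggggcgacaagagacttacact
Zbtb7b, chr3:89393544-89393603, minus strand: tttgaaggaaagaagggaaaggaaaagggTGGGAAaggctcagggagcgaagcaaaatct
Runx3, chr4:135120480-135120539, plus strand: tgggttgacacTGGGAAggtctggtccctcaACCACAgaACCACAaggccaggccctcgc
Runx1, chr16:92826025-92826054, minus strand: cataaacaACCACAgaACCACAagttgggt
The RBPJ core was found, on either strand, in 3 of the 12 windows, at -177 from the start for Tbx21, -196 for Zbtb7b and -154 for Runx3, and 25.6% of 32851 RefSeq promoter windows of the same length hold it. Runx3 and Runx1 each carried a tandem pair of Runx cores with the same 2 bases between them, at -134 and -126 for Runx3 and at 28 and 36 bases after the start for Runx1. The Runx core was in 3 of the 12 windows, the third being the other Zbtb7b start, and in 16.8% of all. The E box, CANNTG, which E proteins bind, was in 8 of the 12 windows and in 72.3% of all, with 1 copy for Id2 and no match in the window of Id3. A match is a run of letters and not a bound site, and the difference of these genes on the arrays had no common direction: Runx1 and Runx3 were lower on RFF4, Tbx21 higher within its error, and Zbtb7b divided by probe.

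**Figure D2:**
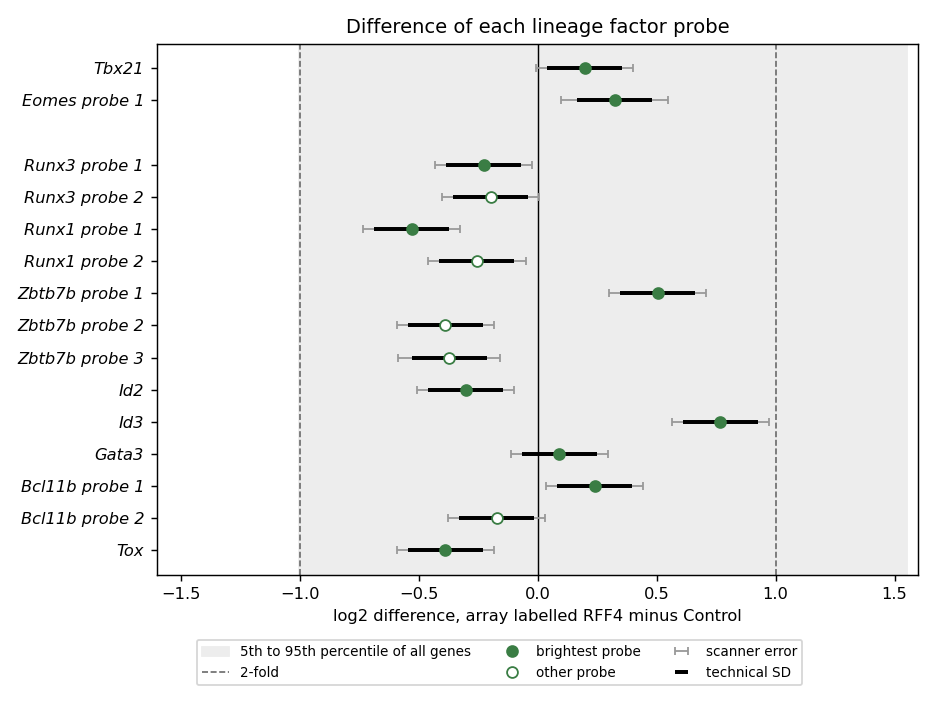
Log2 difference of each measured lineage factor probe, array labelled RFF4 minus Control (x axis), with thick bars for 1 technical SD from repeated spots and thin bars for the scanner's error. The grey band is the 5th to 95th percentile of all genes and dashed lines mark 2-fold, and every probe lies inside both lines, from -0.53 for Runx1 to 0.77 for Id3, with the 3 Zbtb7b probes on both sides of 0.

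The Id genes moved apart. Id2, the E protein inhibitor that cytotoxic T cells and innate lymphocytes hold at a high level, had signals of 17291 ± 1729 on Control and 6236 ± 624 on RFF4, or levels of 5.08 and 4.78, a difference of -0.30 ± 0.20. Id3, the inhibitor induced by T cell receptor signals and kept in resting and memory cells, had signals of 1342 ± 134 and 1016 ± 102, or levels of 1.40 and 2.17. Its difference of 0.77 ± 0.20, or 1.70-fold, was the highest of the 10 factors, and 83.7% of all genes lay below it. On the array labelled RFF4 Id2 was lower by 1.48 scanner errors, where 29.5% of all genes lay lower still, and Id3 was higher by 3.76 scanner errors. The gap Id3 minus Id2 was 1.07 on the log2 scale, or 2.10-fold, beside a technical SD of 0.223 for a gap. It was added as a measure after the data had been seen, and it was not set against gaps between other genes. Being a gap within the arrays, Id3 minus Id2 does not depend on a constant scaling, and it ran from 1.07 to 1.28 over all ways of processing. Each Id gene had a single probe with 1 spot per array, so the gap rests on 4 spots.

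The E proteins themselves differed in opposite directions. Tcf3, which encodes E2A, had levels of 1.47 on Control and 1.79 on RFF4, a difference of 0.32, and Tcf12, which encodes HEB, had levels of 2.28 and 1.88, a difference of -0.41. Genes that E proteins and Id proteins are known to control included 6 of 9 with a difference, and all 6 were higher on RFF4, with a median of 1.40 and 5 past 2-fold (0.27 and 0 under spike-in scaling), beside 12.3% of all genes. Il7r, the IL-7 receptor chain, had levels of -2.29 and -0.38, a difference of 1.91. Ccr7, the receptor that guides T cells to lymph nodes, was 2.63-fold higher, and Cdkn1a, a cell cycle inhibitor, 2.02-fold higher. Cxcr5, a follicular homing receptor, was not well above background on Control (-5.55) and was dim on RFF4 (-4.10). Its bound of at least 2.65-fold higher passes 2-fold by construction, since the lowest level measured well was itself more than 2-fold higher on RFF4. With the filter on both arrays, which leaves Cxcr5 out, 4 genes of the list were higher past 2-fold. Cdkn1a fell inside 2-fold under median, normexp and spike-in processing and with the mean of all probes. Rag1 and Rag2, which rearrange receptor genes in thymocytes, and Ptcra, the pre-T cell receptor alpha chain, were well above background on neither array. Most of the genes that were higher are also markers of naive and circulating lymphocytes, B cells included, and of the 4 measured B cell and plasma cell genes Ms4a1, Jchain and Mzb1 were higher by 1.79, 1.68 and 2.15 on the same array. The fourth, Cd79b, a chain of the B cell receptor complex, went the other way, at levels of 3.42 and 3.17, a difference of -0.26. The part of other cells' RNA in this list and in Id3 was not tested.

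Gata3, Bcl11b and Tox, the broader T cell factors, stayed within 1.31-fold. Gata3, the factor of T cell commitment and of type 2 cytokines, had signals of 4988 ± 499 on Control and 2361 ± 236 on RFF4, or levels of 3.29 and 3.38. The difference of 0.09 ± 0.20 was the only one of the 10 within 1 technical SD of 0, as for 21.8% of all genes. Bcl11b, the factor that keeps T cells from taking an innate lymphocyte fate, had signals of 3975 ± 398 and 2088 ± 209 at its brighter probe, or levels of 2.96 and 3.20. Its probes differed by 0.24 ± 0.20 and -0.17 ± 0.20, in opposite directions and each within about 1 error, so Bcl11b has no direction here. Tox, an HMG-box factor needed for the CD4 lineage in the thymus and raised by lasting receptor stimulation, had signals of 6694 ± 669 and 2273 ± 227, or levels of 3.72 and 3.33. Its single probe differed by -0.39 ± 0.20 and was thus lower on RFF4, by 2.46 technical SDs and 1.90 scanner errors.

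Targets of Gata3 were mostly dim, and their differences depended on the treatment of dim probes. Of 8 type 2 and related genes 5 had a difference, 3 of them as bounds, and 2 were higher past 4-fold on RFF4 while 1 was lower past 2-fold. Il13, a type 2 cytokine, had levels of -4.83 on Control and -2.83 on RFF4, just past 4-fold. Ccr8, a chemokine receptor of type 2 and regulatory T cells, was not well above background on Control and at least 7.68-fold higher on RFF4. The 2 genes higher past 2-fold became 1 in the authors' table and with the filter on both arrays, where Ccr8 has no value, and under spike-in scaling, where Il13 fell inside 2-fold. In the other direction Il24, a cytokine of the IL-10 family, was at least 2.75-fold lower. That call was lost under normexp, in the authors' table and with the filter on both arrays, where the list's median difference of -0.21 became 1.20, 0.88 and 0.89. Gata3 itself differed by less than its error beside them.

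Transcripts of proteins that work with the lineage factors also differed by less than 2-fold, with 1 exception that depended on the probe. Among 15 partners and cofactors, including the Tle and histone deacetylase corepressors, none passed 2-fold at the brightest probe, 5 were higher and 10 lower, and the median difference was -0.18. The 3 probes of Tle1 ran from 0.43 to 1.47, and with the mean of all probes it passed 2-fold at 1.01. Close relatives of the factors from the same gene families were read next. Of 19 relatives 12 had a difference, and of these 5 were higher past 2-fold on RFF4 and 1 was lower, beside 12.3% and 5.05% of all genes, with a median of 0.87 that became -0.25 under spike-in scaling. Tbx3, a T-box repressor, had levels of -0.90 and 0.85, Bcl11a, the relative of Bcl11b used by B cells and dendritic cells, had levels of -3.35 and -1.77, and Id1 had levels of 0.66 and 2.12. These were differences of 1.75, 1.58 and 1.46, each above that of the family's T cell member in these data (0.20 for Tbx21, 0.24 for Bcl11b, 0.77 for Id3). The relatives measured on both arrays and inside 2-fold differed by -0.14 for Runx2, -0.28 for Tox4, 0.77 for Tox3, 0.97 for Gata6 and 0.16 for Zbtb7a. Gata4, a factor of the intestinal epithelium, was higher by 1.21 and Tox2 by 1.01, while the Tbx6 probes differed by -1.92 and -0.19. Tox2 fell inside 2-fold under median, quantile, cyclic loess, normexp and spike-in processing and in the authors' table, and Gata4 under normexp and spike-in processing, where the 5 became 3 and 0. The epithelial markers, of which 12 of 15 were higher past 2-fold, and the macrophage and dendritic markers, of which 10 of 12 were, moved in the same direction as 8 of the 12 relatives and against the other 4, and their part in the differences was not tested.

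**Figure D3:**
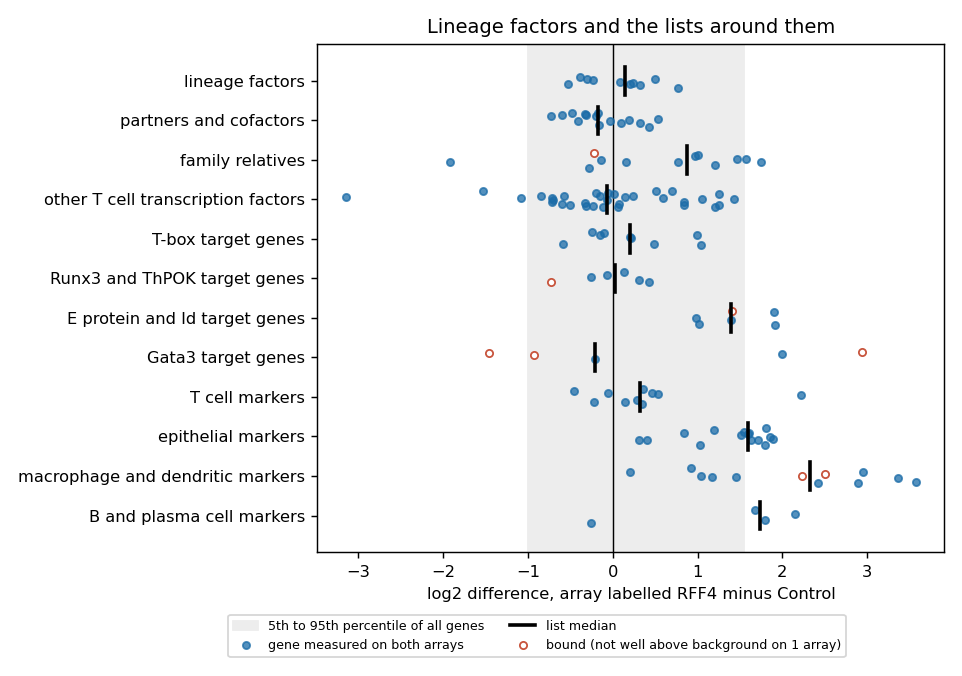
Log2 difference, array labelled RFF4 minus Control (x axis), of each gene of the lineage factors and of the lists around them, with black bars for list medians and a grey band for the 5th to 95th percentile of all genes. Filled points were measured on both arrays and open points are bounds, and the lineage factors (median 0.14) and their partners (median -0.18) lie close to 0 while epithelial markers (median 1.59) and macrophage and dendritic markers (median 2.33) lie to the right.

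Other transcription factors of T cells included some past 2-fold on both sides. Of 33 matched factors 5 were higher past 2-fold and 3 lower, beside 12.3% and 5.05% of all genes, with a median of -0.06. Lyl1, a bHLH factor that pairs with E proteins, had levels of 2.52 on Control and -0.62 on RFF4 and was the only factor past 4-fold, at 8.83-fold lower. Zbtb16, which encodes PLZF, the factor of innate-like T cells, had levels of 1.31 and -0.21, and Gfi1, a repressor that limits Id2 and Il7r in T cells, had levels of 4.57 and 3.50. Both were thus lower on RFF4, with differences of -1.52 and -1.08. Irf4 was higher by 1.43, Klf2, the factor that drives S1pr1, by 1.25, Foxp3 by 1.20 and Hhex by 1.06. Foxp3 was dim, at levels of -5.02 on Control and -3.81 on RFF4, each close to the lowest level its array measured well. Irf4 and Hhex are used by B cells and myeloid cells as well, and the bearing of those cells' RNA on them was not tested.

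Marker lists of IELs and of neighbouring lymphocytes were read beside these differences. All 10 genes of natural IELs were measured on each array, and 3 were higher past 2-fold on RFF4, namely Xcl1, Klra1 and Gzma, by 1.71, 1.43 and 1.02, beside 12.3% of all genes, with a list median of 0.19. Gzma fell inside 2-fold under median, quantile, cyclic loess, normexp and spike-in processing, and Xcl1 and Klra1 did so under spike-in scaling. Of 4 matched γδ T cell genes only Sox13 was measured, at levels of -1.28 and -0.50, and the γδ receptor constant genes were not matched by accession. Among 6 genes of CD4 and CD8αβ T cells Cd40lg was well above background on neither array. The dim Foxp3 differed by 1.20 and Ctla4 by -1.01. Both calls were lost under quantile, cyclic loess and normexp processing, and that of Foxp3 also under spike-in scaling. Among 8 genes of NK cells and innate lymphoid cells Ltb and Klrg1 were higher by 1.82 and 1.41, Klrb1c and Kit were lower with differences of -1.89 and -1.46, and Ncr1 was measured on neither array. In the T cell list Cd2, an adhesion receptor, was the only gene past 4-fold, at levels of 2.96 and 5.18.

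**Figure D4:**
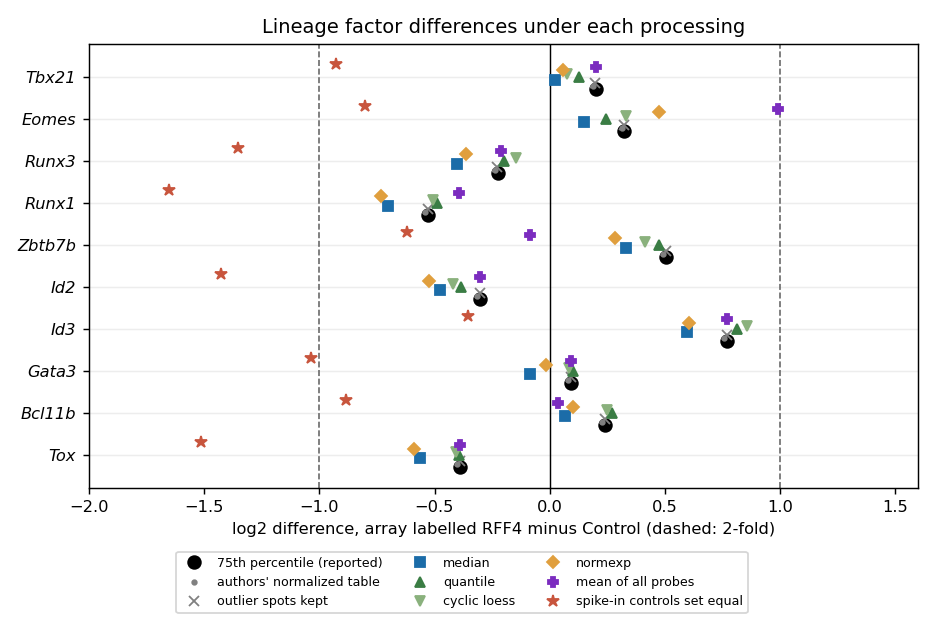
Log2 difference of each lineage factor, array labelled RFF4 minus Control (x axis), under the reported scaling (black circles) and 8 other ways of processing, with dashed lines at 2-fold; the 2 other filters left every point where the black circle is. Setting the spike-in controls equal (red stars) puts all 10 factors below 0 and 5 past 2-fold lower, the mean of all probes moves Eomes, Zbtb7b and Bcl11b, and the rest leave every factor inside 2-fold.

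The direction of several factors depended on how the arrays were processed. The 10 alternatives were not 10 separate checks. The 2 filters left every factor at its reported value, and kept outliers and the authors' table moved the all-gene median by only -0.000209 and -0.01. The mean of all probes could move only the 5 factors with several probes. Runx3, Runx1, Id2 and Tox were lower on RFF4 under all 10 alternatives. Tbx21, Eomes, Id3 and Bcl11b were higher under 9 of them, Zbtb7b under 8 and Gata3 under 7. The exception common to these 6 was the scaling that sets the spike-in controls of both arrays equal, under which the median of all genes fell by 1.12 and the factors ran from -1.65 for Runx1 to -0.36 for Id3. This scaling moves every gene by 1 constant. The factors' median lay 0.12 above that of the 14212 genes with a difference there, against 0.16 over 13513 genes in the reported scaling. That change comes from the set of genes, since over the same 13513 genes the all-gene median was -1.14, beside -0.98 for the factors. With the mean of all probes it lay below that of all genes (-0.31), and likewise with no filter (-0.11), but there all genes were 20887, many of them at background. Over the 13513 genes alone the all-gene medians were -0.01 and -0.02. The factors' medians beside them were -0.03 with the mean of all probes and 0.14 with no filter.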

How the data were processed

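Total RNA of sorted TCRαβ+ CD8αα+ IELs (1 pool for Control and 1 for RFF4, 150 ng each) was labelled with Cy3 and hybridised to Agilent mouse arrays on 1 slide. The authors scanned them and deposited intensity values from Agilent Feature Extraction 10.7.1.1, namely the background-subtracted processed signal with its error. They also deposited a table of normalized log2 values, whose settings are not given in the sources used here; 6231 of its 62976 lines hold no value and 905 are on another scale, and the rest were an alternative here.

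Outlier spots and control spots were left out, log2 signals were averaged per probe and the array's 75th percentile of them was subtracted. Probes were named through RefSeq accessions (27509 of 55681 gene probes), and the probe with the highest mean level over both arrays stood for a gene, well above background or not. A probe counted as well above background where the scanner's flag held on a share of at least 0.5 of its spots. Where 1 array was below background the difference is a bound; 6663 genes were below it on both. Names of genes in the text are all 10 factors, Rbpj, and of each list those past 4-fold and otherwise up to 3 largest rises and falls past 2-fold, with a few fixed extras; where a list held 5 rises, those beyond 3 are named too. A few genes of the lists are counted but not reported here by name. The 10 factors and the lists were chosen with earlier results of these data known. The sequences come from RefSeq.

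The alternatives were median, quantile, cyclic loess and spike-in scaling, normexp (offset 50), the authors' table, the mean of all probes, kept outliers and 2 filters. Python 3.11.15, pandas 2.3.3, numpy 2.4.6, R 4.3.3 and limma 3.58.1 were used, and the scripts were tested on simulated data. The precision is limited by the number of arrays.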

Additional observations from a re-analysis of the deposited data

How the results depend on the processing

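No paired analysis was possible because each group had 1 array, and for the same reason no array could be left out. Counts, medians and differences come from 2 pools of RNA on 1 slide, and single spots limit each member. The mean of all probes and the absence of a filter take in probes at background. The gaps between paired factors were added as a measure after the data had been seen. The cause of the shifts below was not tested.

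No lineage factor passed 2-fold under any alternative except spike-in scaling, under which 5 were lower past 2-fold and 0 higher, and 56.9% of all genes were lower past 2-fold. The factors' median was -0.0301 under median scaling, -0.98 under spike-in scaling and -0.0255 with the mean of all probes, and 0.02 to 0.14 under the others. By factor, Gata3 was -0.08 under median scaling and -0.01 under normexp, and with the mean of all probes Zbtb7b was -0.09 and Bcl11b 0.03. Runx1 was -0.73 under normexp, and Eomes was 0.99 with the mean of all probes, which takes in its probe below background. The gap Tbx21 minus Eomes was -0.79 and Zbtb7b minus Runx3 0.13 with that mean, and the gap Gata3 minus Tbx21 was 0.01 under cyclic loess.

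Median scaling moved list medians by its shift of -0.17, to -0.35 for partners, 0.70 for family relatives, -0.24 for other T cell factors, 0.0248 for T-box targets, -0.14 for Runx3 and ThPOK targets, 1.22 for E protein and Id targets, 0.14 for T cell markers, 0.0173 for natural IEL markers, 0.61 for γδ markers, -0.20 for CD4 and CD8αβ markers, 1.07 for NK and ILC markers, 1.42 for epithelial markers, 2.15 for macrophage and dendritic markers and 1.56 for B and plasma cell markers. Spike-in scaling gave, in that order, -1.30, -0.25, -1.19, -0.93, -1.09, 0.27, -0.81, -0.93, -0.34, -1.15, -0.057, 0.47, 1.20 and 0.61, and -1.23 for Gata3 targets, and it turned the sign of Tox2 (-0.12), Hhex (-0.0691), Cxcr3 (-0.0872), Cdkn1a (-0.11), Gzma (-0.10), the epithelial gene Alpi (-0.0969) and the macrophage gene Adgre1 (-0.0814). Quantile normalization gave -0.17 for T-box targets, 1.23 for E protein and Id targets, -0.23 for T cell markers, -0.0937 for natural IEL markers and 2.14 for macrophage and dendritic markers. Cyclic loess gave -0.0568 for T-box targets, -0.0177 for T cell markers, -0.0587 for natural IEL markers and 2.07 for macrophage and dendritic markers. Normexp gave 0.0228 for T-box targets, 1.15 for E protein and Id targets, 1.20 for Gata3 targets, 0.0832 for T cell markers, -0.0335 for natural IEL markers, 0.59 for γδ markers, 0.97 for NK and ILC markers, 1.39 for epithelial, 1.29 for macrophage and dendritic and 1.24 for B and plasma cell markers. The authors' table gave 0.88 for Gata3 targets and 1.92 for macrophage and dendritic markers, and the filter on both arrays 0.89 and 1.94. The mean of all probes gave 0.43 for Gata3 targets, 1.19 for γδ markers, -0.25 for CD4 and CD8αβ markers, 2.49 for macrophage and dendritic markers and 1.27 for B and plasma cell markers. With no filter the values were 0.31 for Gata3 targets, 1.20 for γδ, 1.04 for NK and ILC, 2.49 for macrophage and dendritic and 1.27 for B and plasma cell markers.

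Over all genes, 1667 of 13513 (12.3%) were higher past 2-fold, against 198 of 14212 (1.39%) under spike-in scaling. Of 20887 genes, 6329 (30.3%) were higher with the mean of all probes and 6272 (30.0%) with no filter. In the reported scaling 683 (5.05%) were lower, against 1087 of 13617 (7.98%) under median and 8091 of 14212 (56.9%) under spike-in scaling. Of 9 T-box targets the 1 past 2-fold became 0 under median, cyclic loess, spike-in and normexp processing. With the mean of all probes 1 partner, Tle1, was higher past 2-fold in place of 0. The 5 higher family relatives became 3 under normexp, 10 with the mean of all probes, 9 with no filter and 0 under spike-in scaling. The 5 higher other T cell factors became 2 under normexp and 0 under spike-in scaling, with 21 lower in place of 3. The 5 higher E protein and Id targets became 0 under spike-in scaling. Among Gata3 targets the 2 higher became 1 under spike-in scaling, in the authors' table and with the filter on both arrays, and 4 with the mean of all probes, and the 1 lower became 0 under normexp, in the authors' table and with the filter, 4 under spike-in scaling and 2 under the other 5 that moved it. Foxp3 and Ctla4 each fell inside 2-fold under quantile, cyclic loess and normexp processing. Spike-in scaling put 11 partners, 4 family relatives, 4 T-box targets, 3 Runx3 and ThPOK targets, 3 T cell markers, 5 natural IEL markers, 3 CD4 and CD8αβ markers and 1 B and plasma cell marker past 2-fold lower, and left 0 natural IEL, 0 NK and ILC, 0 epithelial and 1 B and plasma cell marker past 2-fold higher.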
